A study of Mus musculus with 8 samples.

Results

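Small nucleolar RNAs (snoRNAs) were examined in total RNA of undifferentiated pleomorphic sarcoma (UPS), a soft tissue tumour of mesenchymal origin, grown in the hind limb muscle of mice. Members were taken by gene symbol, from Snord genes (C/D box snoRNAs) and Snora genes (H/ACA box snoRNAs) followed by a number, with at least 10 counts summed over all 8 tumours. Of 26667 genes with a row, 114 had such a symbol and 97 were kept, 63 C/D box and 34 H/ACA box genes. Of the 17 rows left out, 10 had 0 counts in every tumour. Just inside the limit lay Snord33 with 11 counts and Snord82 with 14, and just outside it Snord61 with 9 and Snord90 with 8.

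All tumours arose in mice with Trp53 fl/fl. KP tumours (n = 4, KP 5 to KP 8, genotype Wild type in the labels) had no further floxed allele named, and KPH2 tumours (n = 4, KPH2 1 to KPH2 4, genotype Epas1 -/- in the labels) added Epas1 fl/fl, where Epas1 encodes HIF-2α, a subunit of an oxygen-regulated transcription factor. Both groups had a Mixed 129/C57BL/6 background, and the same adenovirus expressing Cre recombinase, injected into the gastrocnemius muscle, set off recombination in whichever cells it entered, so that cells of the host that took up no virus kept their Trp53 and Epas1 alleles, and these tumour sections may hold RNA of both kinds of cell. Mice of both sexes were at least 8 weeks old at injection, and tumours were taken at 7 weeks or at a size limit, though the sources used here do not give the time for each tumour. RNA came from formalin-fixed, paraffin-embedded (FFPE) sections, was depleted of ribosomal RNA and was sequenced as 1 stranded library per tumour. The labels do not say that each tumour came from its own mouse, so p-values measure the spread between these tumours. The study set 1 tumour aside as an outlier of technical origin. Its methods make this a knockout tumour, while another part of its text gives the smaller number to the KP group. KPH2 1 is the tumour absent from the deposited normalized values of 7 tumours, and tests therefore used KP 5 to KP 8 and KPH2 2 to KPH2 4, and KPH2 1 is given apart.

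snoRNAs are short nuclear RNAs that guide chemical modification of other RNAs, above all the precursor of ribosomal RNA. C/D box snoRNAs pair with the site at which fibrillarin adds a methyl group to the ribose, and H/ACA box snoRNAs hold the site at which dyskerin turns uridine into pseudouridine. A few members of each class take part in cutting the ribosomal RNA precursor, among them U3, U8 (Snord118), U14 (Snord14), U22 (Snord22) and U17 (Snora73). Most mammalian snoRNAs are cut out of introns of host genes, many of which encode ribosomal proteins or translation factors, so that their output depends on transcription and splicing of the host.

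The sequences below show the features that define both classes, for the genes on which the results turn. Snora73a, Snord17, Snord22 and Snord15b were among the 5 genes of highest level, the Snord14 genes in Hspa8 included the 2 of smallest p among members past edgeR's filter on low counts, and Snora31 and Snord111 had the smallest p-values among those with a positive fold change. Each is the RNA strand of the GENCODE M21 gene on GRCm38, 5′ to 3′ in DNA letters, and capitals mark box C (TGATGA) and box D (CTGA) of C/D box genes or the ACA box of H/ACA box genes. Snora73a lies at chr4:132352775-132352979, minus strand, in an intron of every Rcc1 transcript, and also overlaps exons of Snhg3 on its own strand and of Gm17300 on the other. Snord17 lies at chr2:144265979-144266216, minus strand, in an intron of Snx5. Snord22 lies at chr19:8725866-8725991, plus strand, within Snhg1, where it overlaps an exon of some transcripts, and lacks the TGATGA letters. Snord15b lies at chr7:99479563-99479707, minus strand, within Rps3, where it overlaps an exon of some transcripts. Snora31 lies at chr14:75847905-75848034, plus strand, in an intron of Tpt1. Snord111 lies at chr8:110838528-110838616, minus strand, within Sf3b3, where it overlaps an exon of some transcripts.
Snora73a: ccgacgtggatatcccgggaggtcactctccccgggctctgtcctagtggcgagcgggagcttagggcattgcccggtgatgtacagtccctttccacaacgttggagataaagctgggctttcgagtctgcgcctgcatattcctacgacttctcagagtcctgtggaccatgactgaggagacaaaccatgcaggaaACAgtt
Snord17: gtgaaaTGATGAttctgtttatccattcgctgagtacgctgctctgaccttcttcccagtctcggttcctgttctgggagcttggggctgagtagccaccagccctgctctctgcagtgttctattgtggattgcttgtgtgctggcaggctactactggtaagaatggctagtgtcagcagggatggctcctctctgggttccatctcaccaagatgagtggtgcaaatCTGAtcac
Snord22: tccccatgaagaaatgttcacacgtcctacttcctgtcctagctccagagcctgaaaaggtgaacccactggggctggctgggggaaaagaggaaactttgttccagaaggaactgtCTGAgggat
Snord15b: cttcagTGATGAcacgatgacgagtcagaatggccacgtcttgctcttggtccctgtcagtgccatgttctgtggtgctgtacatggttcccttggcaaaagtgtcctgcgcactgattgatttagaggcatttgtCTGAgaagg
Snora31: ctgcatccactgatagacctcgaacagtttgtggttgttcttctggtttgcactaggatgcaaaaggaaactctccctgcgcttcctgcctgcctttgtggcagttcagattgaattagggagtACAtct
Snord111: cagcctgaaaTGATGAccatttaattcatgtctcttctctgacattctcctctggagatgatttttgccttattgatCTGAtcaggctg

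Hspa8, which encodes the constitutive Hsp70 chaperone of the cytosol, holds 3 U14 genes, each of which overlaps an exon of some Hspa8 transcripts. Snord14c lies at chr9:40803583-40803668, plus strand, Snord14d at chr9:40803995-40804080, plus strand and Snord14e at chr9:40804748-40804837, plus strand. Snord14c and Snord14d differ in 2 of 86 bases, G47A and A49G, written as the Snord14c base, the position from the 5′ end and the Snord14d base. Reads that cover neither position fit both genes and would not have been unique, so counts of this pair are uncertain. Snord14e has no copy as close.
Snord14c: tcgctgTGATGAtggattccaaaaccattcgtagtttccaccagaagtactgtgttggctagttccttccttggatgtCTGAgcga
Snord14d: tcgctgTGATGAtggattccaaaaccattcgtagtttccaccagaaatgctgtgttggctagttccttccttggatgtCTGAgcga
Snord14e: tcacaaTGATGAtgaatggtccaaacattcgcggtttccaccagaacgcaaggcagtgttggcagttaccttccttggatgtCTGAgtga

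The boxes were searched on the RNA strand of each annotated gene. TGATGA stood in the first 20 bases of 38 of 63 C/D box members (60.3%) and of 0 of 34 H/ACA box members, against 21.7% of the 1507 snoRNA genes annotated in mouse. CTGA stood in the last 15 bases of 57 C/D box members (90.5%) and of 2 H/ACA box members (5.9%), against 31.4% of all annotated snoRNA genes. ACA stood in the last 8 bases of 32 H/ACA box members (94.1%) and of 7 C/D box members (11.1%), against 46.8% of all. The letters thus followed the symbols in most members, and box C varied more from these letters than box D did. All 97 members matched a RefSeq and a GENCODE gene, but start and end were the same in both for 11 only, so the ends shown above may differ from those that were counted. By their RefSeq length C/D box genes had a median of 68 bases (28 to 221) and H/ACA box genes of 119 bases (56 to 205).

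Total counts per tumour ran from 6463221 to 13155510. Epas1 was lower in each KPH2 tumour (32.6 to 53.4 counts per 1e+06 of the normalized library size, CPM) than in each KP tumour (59.2 to 86.9 CPM), with a log2 fold change of −0.81 (SE 0.19, edgeR adjusted p = 0.0742). The mean log2 CPM of 30 skeletal muscle markers was 3.57 to 4.65 in KP tumours, 4.79 to 7.17 in KPH2 2 to 4 and 3.51 in KPH2 1. With edgeR 28 of the 30 were higher in KPH2 2 to 4 at an unadjusted p under 0.05 (8.50% of all genes). Of these, 3 passed the adjusted p (1.96% of all genes in either direction). Summed macrophage markers (4 genes) ran from 1086 to 1991 CPM in KP tumours, from 681 to 1192 in KPH2 2 to 4 and 839.9 in KPH2 1, summed endothelial markers (4 genes) from 211.9 to 406.5, from 183.5 to 209.1 and 160.6, and summed mesenchymal markers (5 genes) from 5738 to 16820, from 4635 to 9584 and 6176. With edgeR 2 macrophage and 2 endothelial markers were lower in KPH2 2 to 4 at an unadjusted p under 0.05 (9.26% of all genes), and 0 passed the adjusted p. Of the mesenchymal markers Pdgfra passed the adjusted p, at 720.5 to 1494 CPM in KP tumours, 223.8 to 273.6 CPM in KPH2 2 to 4 and 639.1 CPM in KPH2 1 (log2 fold change −2.02, SE 0.27, edgeR adjusted p = 0.0183). No marker was at 0 in all tumours. In bulk tissue, fewer cells of a type and less RNA per cell cannot be told apart.

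snoRNA genes held 94778 counts over the 8 tumours, and a few genes held most of them. Snora73a (U17, Entrez Gene 100306944) alone took 48.2% of the counts, and the leading 3 genes, Snora73a, Snord17 and Snora74a (U19), took 72.5%. Since Snora73a overlaps exons of Snhg3 and Gm17300 and the counting rule for overlaps is not given in the sources used here, these shares may include reads of those genes or lose reads to them. Snora73a was counted at 424.7, 395.6, 565.9 and 561.2 CPM across KP 5 to 8 in order, at 802.5, 333.1 and 424.3 CPM across KPH2 2 to 4, and at 788.7 CPM in KPH2 1. KPH2 2 and KPH2 1 stood highest and KPH2 3 lowest, with every KP tumour between them. Its copy Snora73b, 98.0% identical over the length compared, was listed at 0 in every tumour, as were Snora24, Snora26, Snord1a, Snord7, Snord45c, Snord93, Snord116, Snord116l1 and Snord116l2. A count of 0 among 83464984 allows a level of up to 0.0359 per 1e+06 counts, for counting error only.

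Levels were compared between genes per kilobase of RefSeq length. Most C/D box genes were shorter than the study's single reads, so that counts need not scale with length there. Snord98 (28 bases), for example, averaged 0.771 CPM in KP tumours but 27.3 CPM per kb over the 7 tumours. Values per kb of short genes are therefore approximate. From the lowest to the highest member, mean CPM per kb over the 7 tumours spanned 1.37 to 2444, and the medians were 12.7 for C/D box and 25.1 for H/ACA box genes. Among H/ACA box genes Snora73a (2444 CPM per kb) was followed by Snora74a (629.1), Snora78 (156.5), Snora23 (133.0) and Snora81 (98.3). Snord17 (596.0 CPM per kb), a methylation guide in Snx5, led the C/D box genes before Snord22 (270.2), Snord15b (185.8), Snord118 (70.3) and Snord2 (64.0). Of these, Snora73a, Snord22 and Snord118 belong to the snoRNAs that serve cleavage of the ribosomal RNA precursor. The order of neighbours is uncertain, and the spread per kb was not computed. In CPM, not divided by length, Snora78 was at 20.2 ± 6.67 (SD, n = 4) and Snora23 at 23.4 ± 2.13 (SD, n = 4) in KP tumours. In KPH2 2 to 4 their order was the reverse, at 30.4 ± 11.3 (SD, n = 3) and 25.9 ± 16.2 (SD, n = 3).

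Within the C/D box class a few long genes held most of the counts. The 5 C/D box genes of 100 bases or more, Snord17, Snord22, Snord15b, Snord15a and Snord118, held 78.4% of the class counts at a median of 185.8 CPM per kb, while the 58 shorter ones had a median of 12.2 CPM per kb (1.37 to 63.95). The ranges met, since Snord15a (148 bases) was at 58.1 CPM per kb and Snord2 (68 bases) at 64.0. Spearman's rho of length and CPM per kb was 0.10 across the 63 C/D box genes and 0.43 across the 34 H/ACA box genes, which share the libraries and are not independent. Libraries of this kind hold fragments of a range of sizes, and the part of fragment size in these levels was not tested. Depth was therefore uneven, since 53 members had at least 100 counts over all tumours and the median C/D box member had 79.

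**Figure D1:**
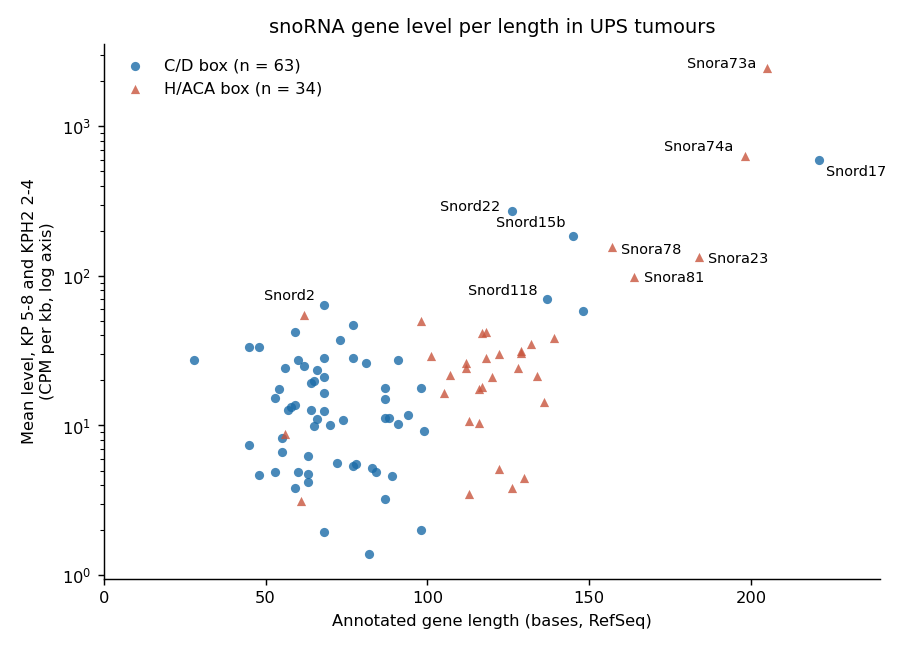
Mean level of each snoRNA gene over KP 5 to 8 and KPH2 2 to 4 (CPM per kb, log axis) against its RefSeq length in bases, with C/D box genes (n = 63) as circles and H/ACA box genes (n = 34) as triangles. Snora73a stands highest at 2444 CPM per kb, and the 58 C/D box genes under 100 bases all lie at or below 63.95.

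Together the 97 members took a similar share of the library in both genotypes. Their share of all gene counts was 0.0868%, 0.102%, 0.100% and 0.129% in KP 5, 6, 7 and 8, 0.139%, 0.0711% and 0.0965% in KPH2 2, 3 and 4, and 0.158% in KPH2 1. KPH2 2 and KPH2 3 thus held the highest and the lowest share of the 7 tumours, and the groups overlapped. The mean was 0.105% ± 0.0178 (SD, n = 4) for KP against 0.102% ± 0.0344 (SD, n = 3) for KPH2 2 to 4, or 0.116% ± 0.0394 (SD, n = 4) with KPH2 1. The difference of −0.00237 percentage points between KPH2 2 to 4 and KP was smaller than either SD. As a share of the normalized library size the means were 0.102% ± 0.0167 (SD, n = 4) and 0.107% ± 0.0437 (SD, n = 3). The difference then had the other sign, at 0.00492 percentage points, and was again smaller than either SD. H/ACA box genes drew 2.35 to 3.51 counts for each C/D box count in KP tumours, at most 3.30 in KPH2 2 to 4 and 2.93 in KPH2 1. Without Snora73a this ratio lay near 1 throughout, at 0.862 to 1.08 in KP tumours, 0.897 to 1.08 in KPH2 2 to 4 and 1.05 in KPH2 1.

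**Figure D2:**
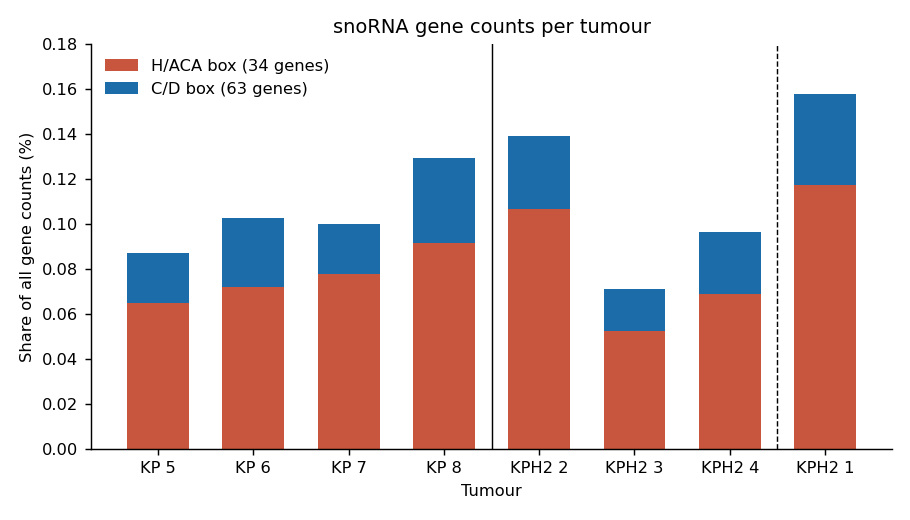
Share of all gene counts (%) taken by H/ACA box (34 genes, lower bar) and C/D box genes (63 genes, upper bar) in each tumour, with KPH2 1 set apart by a dashed line. KPH2 1 (0.158%) and KPH2 2 (0.139%) stand highest and KPH2 3 (0.0711%) lowest, with the KP tumours from 0.0868% to 0.129%.

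Many members shared their highest and lowest tumours, and the order of tumours crossed the genotypes. For the 53 members with at least 100 counts, the median deviation from each gene's own mean, in log2 CPM over 8 tumours, was 0.57 in KPH2 1, 0.33 in KPH2 2, −0.36 in KPH2 3 and −0.14 in KPH2 4, against −0.28, 0.01, −0.12 and 0.02 in KP 5, 6, 7 and 8. Over the 14414 genes with as many counts this median lay between 0.00 and 0.02 in every tumour. KPH2 1 was the highest of the 8 tumours for 28 of the 53 members (52.8%, against 17.9% of all genes) and the lowest for 0 of them (against 14.8% of all genes). KPH2 2 was the highest for 11 (20.8%, against 11.7% of all genes). The lowest tumour was KPH2 3 for 14 members (26.4%, against 11.3% of all genes) and KP 5 for 13 (24.5%, against 13.3%).

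Among H/ACA box genes the order of tumours was more alike than among C/D box genes. All 28 H/ACA box members with at least 100 counts had their highest tumour in the KPH2 group, 18 in KPH2 1, 8 in KPH2 2 and 2 in KPH2 4, where 49.5% of all genes did. Among the 7 tumours without KPH2 1, 24 of the 28 were highest in a KPH2 tumour (all genes, 39.3%), 20 of them in KPH2 2. Of the 25 C/D box members, 14 were highest in a KPH2 tumour and 8 in KP 6 over the 8 tumours, and 10 in a KPH2 tumour over the 7 (all genes, 39.3%). The median Pearson's r of log2 CPM between members over the 8 tumours was 0.64 for H/ACA box pairs (378 pairs) and 0.25 for C/D box pairs (300 pairs), where the points share libraries and the C/D box counts are fewer.

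**Figure D3:**
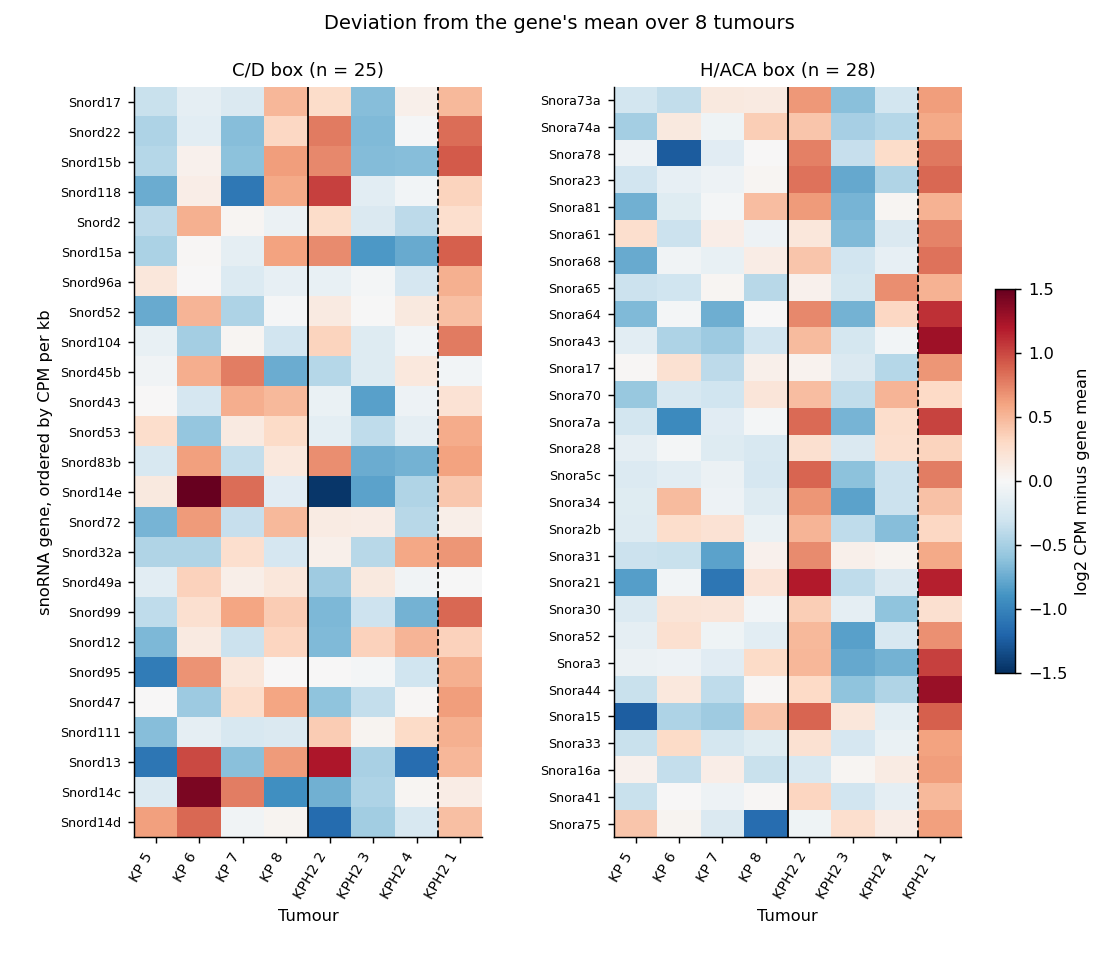
Deviation of log2 CPM from each gene's mean over 8 tumours (colour, red higher and blue lower, colours end at 1.5) for the 25 C/D box and 28 H/ACA box genes with at least 100 counts, ordered by CPM per kb. The columns of KPH2 1 and KPH2 2 are mostly red among H/ACA box genes (medians 0.64 and 0.48) and that of KPH2 3 mostly blue (median −0.37), while C/D box genes show a mixed pattern in KP 6.

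Other small noncoding RNAs, nuclear ones and the mainly cytoplasmic Y RNAs among them, and small Cajal body RNAs shared this pattern in part. Pearson's r with the median member deviation over the 8 tumours was 0.92 for Rnu3a (U3, itself a C/D box snoRNA under another symbol), 0.90 for Rnu11 (a minor spliceosome RNA), 0.89 for Rny3 (a Y RNA) and 0.85 for Terc (telomerase RNA, which has an H/ACA box). Among small Cajal body RNAs with at least 100 counts r ran from 0.58 for Scarna2 to 0.85 for Scarna3a. This r was 0.26 for Rmrp, 0.10 for Rn7sk and −0.01 for Rpph1. Rnu3a was counted at 345.7, 410.4, 399.5 and 536.1 CPM across KP 5 to 8 in order, at 837.6, 220.4 and 331.1 CPM across KPH2 2 to 4 and at 737.9 CPM in KPH2 1, with the groups overlapping. Rny3 and Rny1, which had the smallest p-values of this list, had log2 fold changes of 0.88 (SE 0.45, adjusted p = 0.349 from edgeR) and 1.30 (SE 0.68, adjusted p = 0.370), and both were highest in KPH2 2. Of 13 genes tested in this list and of 7 tested Cajal body RNAs, 0 passed the adjusted p (1.96% of all genes) or an unadjusted p under 0.05 (8.50% higher and 9.26% lower) with edgeR, and Scarna13 and Scarna3a came nearest among the Cajal body RNAs, at log2 fold changes of 0.59 (SE 0.33) and 0.68 (SE 0.40).

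Counts of the Rn45s row also differed between the tumours. Rn45s, the row of the ribosomal RNA precursor, took 1.08% to 2.79% of all counts in KP tumours, 9.83%, 4.98% and 3.58% in KPH2 2, 3 and 4 and 6.71% in KPH2 1. Reads of the precursor and of mature ribosomal RNA left after depletion were not told apart in this row. The groups did not overlap, the log2 fold change was 1.65 (SE 0.48, adjusted p = 0.124 from edgeR) and the libraries had been depleted of ribosomal RNA. KPH2 2 and KPH2 1, which led the snoRNA genes, were also the highest for this row, whereas KPH2 3 had the lowest snoRNA share and a higher share of Rn45s than any KP tumour. The part of depletion or RNA quality in the snoRNA levels was not tested.

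To ask whether snoRNA genes differ between tumours with and without Epas1 deletion, members were read from a fit over all genes. Of the 97 members 58 passed edgeR's filter on low counts, 30 C/D box and 28 H/ACA box genes, and the other 39 were too low. By edgeR's quasi-likelihood test 0 of 58 passed an adjusted p of 0.05, which 1.96% of the 14867 tested genes passed, and the smallest adjusted p was 0.147. DESeq2's Wald test also called 0 of them, with 7.93% of all genes called, and came nearest for Snord14e (log2 fold change −1.73, adjusted p = 0.0574). At an unadjusted p under 0.05, 0 members were higher in KPH2 tumours (8.50% of all genes) and 2 were lower (9.26% of all genes), Snord14e and Snord14d. Log2 fold changes lay between −1.71 and 0.76.

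Fold changes lay slightly above 0 for most H/ACA box genes and slightly below 0 for most C/D box genes. Of 28 tested H/ACA box genes 19 had a log2 fold change above 0, and of 30 tested C/D box genes 10 did, where 48.0% of all genes did. The median was 0.14 for H/ACA box genes, −0.12 for C/D box genes and −0.02 for all tested genes. Both medians were smaller than the spread of the tumours' own medians within groups (SD 0.29 log2 units for H/ACA and 0.21 for C/D box genes). Without KPH2 2 the H/ACA box median became −0.10, and without KPH2 4 the C/D box median became 0.00.

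With KPH2 1 added, 64 members were tested and 0 passed the adjusted p, as did 0.00675% of 14805 genes. At an unadjusted p under 0.05, 3 were then higher (6.65% of all genes) and 0 lower (8.02% of all genes), namely Snora43 (log2 fold change 0.86), Snora31 (0.73) and Snord111 (0.72), with adjusted p-values of 0.306, 0.323 and 0.323. Of the 64, 49 had a log2 fold change above 0, against 50.9% of all genes. The medians were then 0.37 for H/ACA box and 0.10 for C/D box genes, against 0.01 for all genes.

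The 39 members under the filter were reached by a fit that kept the 18358 genes with at least 10 counts. In that fit 0 of 97 members passed the adjusted p (1.59% of all genes did), 1 was higher at an unadjusted p under 0.05 (8.21% of all genes) and 3 were lower (8.25% of all genes). Groups did not overlap for 3 members that were higher in KPH2 2 to 4 (8.19% of all genes), Snord111, Snord34 and Snord91a, and for 2 that were lower (7.64% of all genes), Snord14d and Snord14e. Among the 58 members of the stricter filter these counts were 1 higher (8.73% of all genes) and 2 lower (8.15% of all genes). Each share of members was below that of all genes.

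Snord14e (Entrez Gene 100302594) was counted at 2.30, 6.23, 3.85 and 1.81 CPM across KP 5 to 8, from 31, 44, 26 and 24 counts. It was at 0.630, 1.10 and 1.47 CPM across KPH2 2 to 4, from 7, 11 and 13 counts, and at 2.80 CPM in KPH2 1. The 3 KPH2 tumours lay below every KP tumour, while KPH2 1 lay among the KP tumours. The means were 3.55 ± 1.99 CPM (SD, n = 4) and 1.06 ± 0.419 CPM (SD, n = 3), for a log2 fold change of −1.71 (SE 0.54, edgeR adjusted p = 0.147). With KPH2 1 it was −1.21 (SE 0.54, edgeR adjusted p = 0.347), and with the muscle marker score as a covariate −0.53 (SE 0.83, edgeR adjusted p = 0.946).

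Snord14d was at 2.01, 2.41, 1.19 and 1.28 CPM across KP 5 to 8 in order, at 0.450, 0.801 and 1.01 CPM across KPH2 2 to 4 and at 1.76 CPM in KPH2 1. These came from 27, 17, 8 and 17 counts in KP tumours, 5, 8 and 9 in KPH2 2 to 4 and 22 in KPH2 1. As for Snord14e, KPH2 2 to 4 lay below every KP tumour and KPH2 1 among them, and the log2 fold change was −1.19 (SE 0.45, adjusted p = 0.219 from edgeR). It was −0.75 with KPH2 1 and −0.79 (SE 0.76) with the muscle covariate. Snord14c, its near-identical neighbour, overlapped between groups (0.604 to 3.82 CPM in KP, 0.720 to 1.35 CPM in KPH2 2 to 4) and had a log2 fold change of −0.94 (SE 0.65, adjusted p = 0.501 from edgeR). Their host Hspa8 averaged 873.3 CPM in KP (SD 139.7, n = 4) against 943.8 CPM in KPH2 2 to 4 (SD 79.9, n = 3), and its log2 fold change was 0.11 (SE 0.18, adjusted p = 0.802 from edgeR). Over the 8 tumours Pearson's r between host and gene, in log2 CPM, was 0.46 for Snord14c, 0.00 for Snord14d and 0.19 for Snord14e. Another U14 gene, Snord14a in the ribosomal protein gene Rps13, had a log2 fold change of −0.37 (SE 0.50).

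Snord99, a short C/D box gene in the noncoding host Snhg12, was at 1.04, 1.70, 2.22 and 1.89 CPM across KP 5 to 8 in order, at 0.810, 1.10 and 0.789 CPM across KPH2 2 to 4 and at 2.72 CPM in KPH2 1. KP 5 fell within the KPH2 tumours, and KPH2 1 was the highest of all. Its log2 fold change was −0.90 (SE 0.40, adjusted p = 0.289 from edgeR). Snhg12 ran beside it, at 15.3, 19.1, 19.3 and 14.2 CPM in KP tumours, 7.83, 11.2 and 10.3 CPM in KPH2 2, 3 and 4 and 24.9 CPM in KPH2 1, with a log2 fold change of −0.80 (SE 0.22, adjusted p = 0.108 from edgeR). With KPH2 1 the log2 fold changes were −0.30 (SE 0.48) for Snord99 and −0.32 (SE 0.35) for Snhg12. Pearson's r of the pair over 8 tumours was 0.89. Snord99 overlaps an exon of some Snhg12 transcripts, as do the 3 H/ACA box genes of this host, so that their reads and those of Snhg12 cannot all be told apart. These 3 genes had log2 fold changes of 0.10 (SE 0.32) for Snora16a, −0.08 (SE 0.37) for Snora44 and −0.22 (SE 0.32) for Snora61, and r of 0.44, 0.46 and 0.45.

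**Figure D4:**
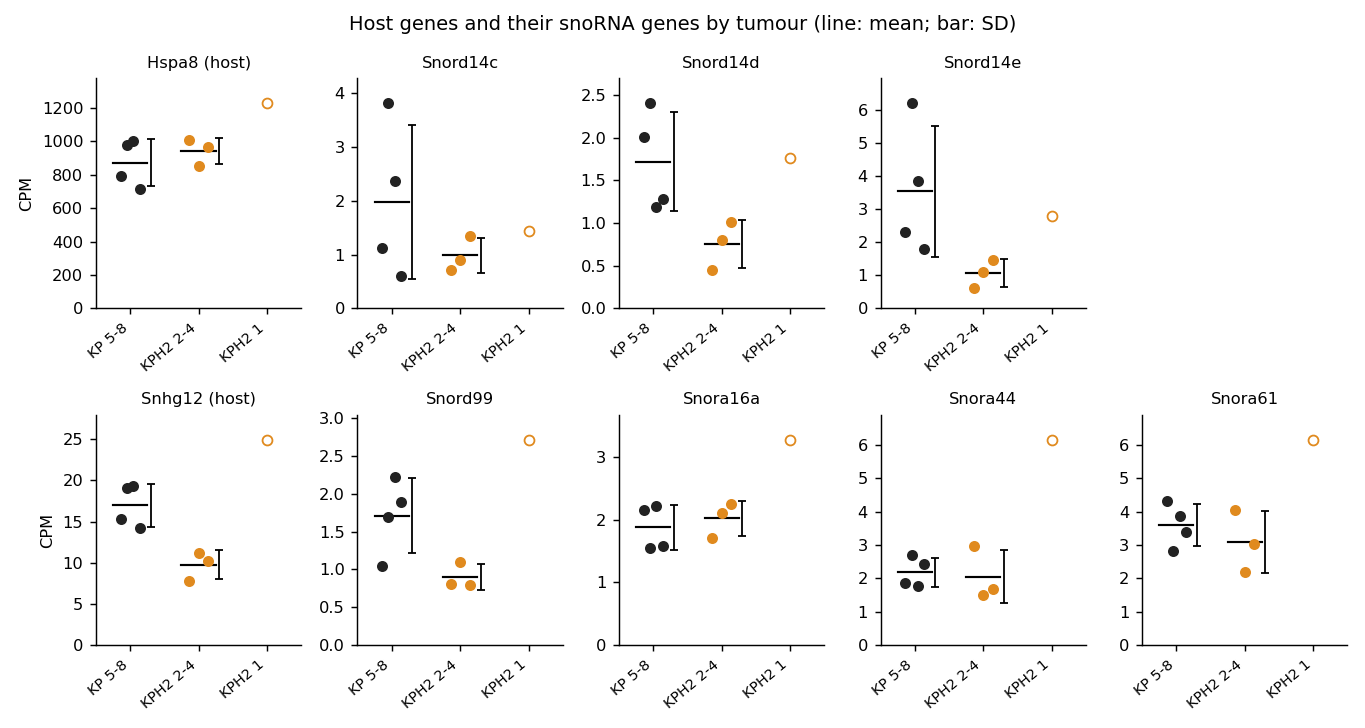
CPM of Hspa8 and its Snord14 genes (upper row) and of Snhg12 and its snoRNA genes (lower row) in KP 5 to 8, KPH2 2 to 4 and KPH2 1 (open circle), where a point is a tumour, the line the mean and the bar the SD. Snord14d and Snord14e lie lower in KPH2 2 to 4 than in every KP tumour while Hspa8 does not, and Snhg12 and Snord99 are highest in KPH2 1 (24.9 and 2.72 CPM).

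Among the members past edgeR's filter with a positive fold change, Snora31, a pseudouridylation guide in Tpt1, had the smallest p. It was at 2.15, 2.12, 1.48 and 2.87 CPM across KP 5 to 8 in order, at 4.59, 2.90 and 2.82 CPM across KPH2 2 to 4 and at 4.16 CPM in KPH2 1. Only KPH2 4 fell within the KP tumours, just below KP 8. The log2 fold change was 0.66 (SE 0.35, adjusted p = 0.370 from edgeR), and that of Tpt1 was 0.45 (SE 0.24). For Snora31 it was 0.39 without KPH2 2 and 0.25 (SE 0.58) with the muscle covariate. Snord111, a methylation guide in the splicing factor gene Sf3b3, was at 0.743, 1.13, 1.04 and 1.06 CPM across KP 5 to 8 and at 1.71, 1.30, 1.58 and 1.92 CPM in KPH2 2, 3, 4 and 1, on 7 to 24 counts per tumour. Here no KP tumour reached the lowest KPH2 tumour, KPH2 1 included, yet the log2 fold change of 0.63 had an SE of 0.35 (adjusted p = 0.392 from edgeR). Sf3b3 had a log2 fold change of 0.37 (SE 0.24), with an r of 0.85 over 8 tumours.

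Snord34 and Snord91a also kept the groups apart with KPH2 1 included, but on few counts, and are named after their values were seen. For all genes the share apart over the 8 tumours was not taken, so how unusual these members are cannot be said. Snord34, 1 of 4 snoRNA genes in the ribosomal protein gene Rpl13a, had 6, 0, 2 and 5 counts in KP 5, 6, 7 and 8, 23, 6 and 12 in KPH2 2, 3 and 4 and 25 in KPH2 1. In CPM the highest KP tumour (0.446) lay below every KPH2 tumour. Its log2 fold change in the fit over 18358 genes was 2.12 (SE 0.71, adjusted p = 0.185 from edgeR). In that fit the other members of this host had 1.05 (SE 1.19, Snord33), 0.37 (SE 0.39, Snord32a) and 0.22 (SE 0.60, Snord35a). Rpl13a itself had 0.05 (SE 0.23) in the fit with the stricter filter. Snord91a had 0 to 4 counts in KP and 3 to 7 counts in all KPH2 tumours, met the limit of 10 counts only through the KPH2 tumours, and its groups were kept apart by library scaling alone (0.297 CPM in KP 5, 0.300 CPM in KPH2 3). Snord1b, the remaining member under the unadjusted threshold, had 4 to 8 counts in KP tumours, 1 to 3 in KPH2 2 to 4 and 8 in KPH2 1, which thus lay among the KP tumours.

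The abundant members showed small differences. Snora73a differed by 0.09 (SE 0.30) between KPH2 2 to 4 and KP tumours on the log2 scale, Snora74a by −0.13 (SE 0.28), Snord17 by −0.04 (SE 0.27), Snord15b by −0.04 (SE 0.43) and Snord22 by 0.34 (SE 0.36). Snora74a, Snord17 and Snord15b turned positive with KPH2 1, at 0.07, 0.11 and 0.27. Snord17 ran from 106.0 to 189.5 CPM in KP tumours and from 85.8 to 162.2 CPM in KPH2 2 to 4, and Snora74a from 89.8 to 164.9 CPM and from 90.3 to 169.7 CPM. Leaving out KPH2 2 moved Snora73a to −0.36 and Snora23 from 0.15 to −0.50. Snora78, in the noncoding host Snhg9, was 10.3 to 24.9 CPM in KP and 19.4 to 42.0 CPM in KPH2 2 to 4 (log2 fold change 0.59, SE 0.35). Snord118, the U8 snoRNA needed for the large ribosomal subunit RNAs, had a log2 fold change of 0.52 (SE 0.46).

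The other genes named by rank were no clearer. Among positive ones Snord8 (0.58, SE 0.47), Snora65 (0.48, SE 0.30), Snora43 (0.45, SE 0.27), Snord32a (0.37, SE 0.38), Snora23 (0.15, SE 0.35) and Snora81 (0.14, SE 0.37) had log2 fold changes within 2 standard errors of 0. Without KPH2 4 Snora65 was at 0.16 and Snord32a at 0.07, and with the muscle covariate at 1.18 and 1.11. The same held for Snord43 (−0.59, SE 0.40), Snora61 (−0.22, SE 0.32), Snora3 (−0.21, SE 0.41), Snora17 (−0.19, SE 0.27) and Snord2 (−0.14, SE 0.33) among negative ones. The largest positive values among the 58, of Snora21 (0.76, SE 0.52) and Snora15 (0.75, SE 0.50), which the rule did not name, were no more precise. For 19 members, Snora73a, Snord118, Snora43, Snora65, Snora81 and Snora3 included, another annotated gene was at least 95% identical over at least 80% of the length, and counts may be split or lost between copies.

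**Figure D5:**
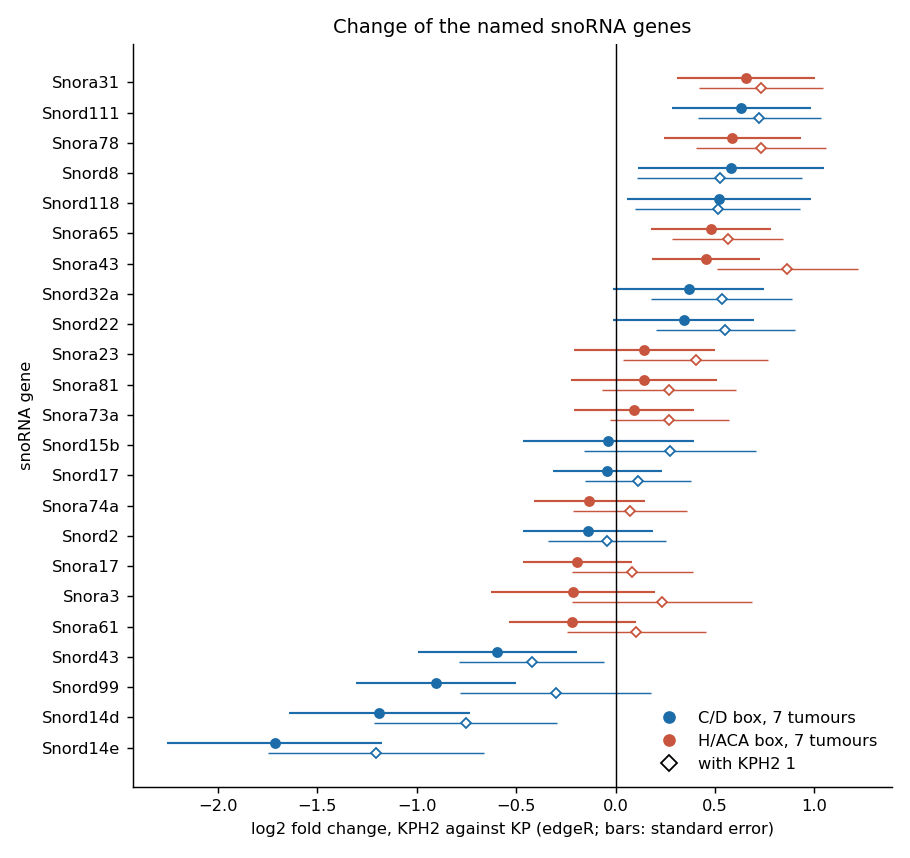
Log2 fold change of KPH2 against KP tumours for the 23 named snoRNA genes (edgeR, bars are standard errors), with C/D box genes in blue and H/ACA box genes in red. Filled circles use 7 tumours and open diamonds add KPH2 1, which moves most genes to the right, Snord14e from −1.71 to −1.21 and Snora74a across 0.

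Host genes were known by position for 83 members, in 60 hosts, and 68 of the members lay in protein-coding genes. Within 45 pairs in which member and host were both tested (36 hosts), 0 hosts passed the adjusted p. Across pairs, which share hosts and libraries, Pearson's r between the fold change of member and host was 0.26 in all, 0.60 for 22 H/ACA box pairs and 0.17 for 23 C/D box pairs. The median r of log2 CPM within a pair over 8 tumours was 0.72 for H/ACA box and 0.48 for C/D box pairs. Hosts of the leading genes had log2 fold changes of −0.11 (SE 0.21) for Rcc1, an exchange factor for the GTPase Ran, −0.10 (SE 0.14) for Snx5, −0.16 (SE 0.18) for Snhg1 and −0.05 (SE 0.24) for Rps3. Rcc1 was taken for Snora73a because it holds this gene in introns alone. Snora73a also overlaps exons of Snhg3 on the same strand, which may be its host instead. Snhg3 had 0 to 10 counts per tumour and was too low to be tested. Rps3 showed the closest pairing, with an r of 0.90 for Snord15b and 0.83 for Snord15a, whereas Eif4a2 had an r of 0.50 with Snord2 and −0.04 with Snora81. Reads of unspliced host RNA can fall in these genes, and their part in the counts was not tested.

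Of the genes listed as long noncoding hosts, 11 of 13 were tested and 10 of these had a log2 fold change below 0, with a median of −0.37, where 48.0% of all genes lay above 0. By edgeR 0 passed the adjusted p and 2 of the 11 were lower at an unadjusted p under 0.05, as were 9.26% of all genes. Snhg12 and Rmst had the smallest p-values. Rmst, like some others of this list, held no snoRNA member by position. It was a low gene, at 0.891 to 6.67 CPM in KP tumours, at 0 to 0.789 CPM in KPH2 2 to 4 and at 2.72 CPM in KPH2 1 (log2 fold change −3.21, SE 1.13, adjusted p = 0.193 from edgeR). Of the tumours tested, only KP tumours reached 10 counts of Rmst (12 to 45, against 0 to 7 in KPH2 2 to 4). With KPH2 1 the list's median was −0.07. Gas5, host of Snord47 and like it named after its values were seen, had a log2 fold change of −0.04 (SE 0.15), and Snord47 one of −0.51 (SE 0.42).

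Proteins of the snoRNA particles were measured as mRNA. None of the 4 core C/D box proteins tested (Fbl, Nop56, Nop58, Nhp2l1), the 4 H/ACA box proteins (Dkc1, Gar1, Nhp2, Nop10) or the 11 assembly factors tested passed the adjusted p with edgeR or DESeq2, and 2 of the 19 were higher at an unadjusted p under 0.05 with edgeR, as were 8.50% of all genes. Fbl, the fibrillarin methyltransferase, averaged 17.6 CPM in KP (SD 1.13, n = 4) against 22.8 CPM in KPH2 2 to 4 (SD 2.93, n = 3), with groups apart and 30.4 CPM in KPH2 1 (log2 fold change 0.37, SE 0.16, adjusted p = 0.278 from edgeR). Nolc1, a nucleolar chaperone of both classes, averaged 68.7 CPM in KP (SD 6.75, n = 4) against 85.6 CPM in KPH2 2 to 4 (SD 4.92, n = 3) (log2 fold change 0.32, SE 0.14, adjusted p = 0.274 from edgeR), and was at 132.0 CPM in KPH2 1. Log2 fold changes were above 0 for all 8 core proteins, with medians of 0.22 and 0.15, and for 9 of 11 assembly factors, against 48.0% of all genes. Nhp2 (log2 fold change 0.32, SE 0.24) and Nop58 (0.27, SE 0.15) came next among the core proteins, and Dkc1, the pseudouridine synthase, had one of 0.09 (SE 0.14).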

How the data were processed

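Total RNA of 4 KP and 4 KPH2 tumours was extracted from FFPE sections with a Qiagen FFPE kit (miRNeasy in the labels, RNeasy in the study's methods; kits can differ in recovery of short RNA), depleted with Ribo-Zero Gold and sequenced from TruSeq Stranded libraries. Per the labels, CASAVA 1.8.2, STAR 2.4, HTSeq 0.6.1 and DESeq2 1.6 were used on GRCm38. The authors deposited raw counts of unique alignments per RefSeq gene, without normalization, and these counts were analysed here. Unique alignment loses reads shared by near-identical snoRNA copies. The strand setting of the counting is not given in the sources used here. The deposited regularized log2 values were not used.

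Counts were analysed with edgeR 4.0.16 in R 4.3.3 over all genes, scaled by TMM and filtered by filterByExpr (at least 10 counts, 15 in total). Its robust quasi-likelihood test compared KP 5 to 8 with KPH2 2 to 4, with no covariate. Adjusted p (Benjamini-Hochberg) refers to every gene tested, and 0.05 was the threshold. The script was tested on simulated data. CPM used TMM library sizes over all 8 tumours, and log2 CPM a prior count of 2. Total counts ran from 6463221 to 13155510 per tumour. Positions, sequences and hosts came from GENCODE M21 on GRCm38, since the RefSeq table gives no exons, and lengths from RefSeq. The host of a gene is the shortest counted gene on its strand that spans it, other small RNAs aside, with preference for those that hold it in introns alone. Near-identical copies were sought with blastn.

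Members and gene lists were chosen with earlier results of these data known. Named are, per class, the 4 tested genes of smallest p in either direction and the 5 of highest CPM per kb, their hosts, Epas1, and for each other list the 2 genes with the smallest p where fewer pass. Other genes were named after their values were seen. Muscle, macrophage, endothelial and mesenchymal markers served as checks of tissue make-up. Alternatives were all 8 tumours, DESeq2 size factors, upper-quartile scaling, no filter, at least 10 counts, DESeq2 1.42.0, edgeR without robust estimates, a muscle score covariate, each tumour left out in turn and, for the share of counts, other scales and members. DESeq2 over all 8 tumours was added after seeing the data. A further allele that both groups share is not reported here.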

Additional observations from a re-analysis of the deposited data

Results flagged for a closer look

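The level of Snord99 in KPH2 tumours had 1 tumour far from the others. KPH2 1 was at 2.72 CPM, while KPH2 2, 3 and 4 lay between 0.789 and 1.10 CPM, and the KP tumours between 1.04 and 2.22 CPM. Its host Snhg12 was also highest in KPH2 1, at 24.9 CPM against 7.83 to 11.2 CPM in the other KPH2 tumours. This was 1 of 60 groups of 4 tumours examined in this way, of which chance flags about 1 in 20.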

How the results depend on the processing

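No paired analysis was possible because the replicate numbers of KP (5 to 8) and KPH2 (1 to 4) tumours are not shared. In every setting run, 0 snoRNA genes and 0 snoRNA particle genes passed the adjusted p. At an unadjusted p under 0.05 the count of snoRNA genes higher in KPH2, 0 in the report, was 3 with all 8 tumours, 1 with no filter, 1 with at least 10 counts, 1 with the muscle score covariate and 2 with DESeq2 over all 8 tumours, and 0 to 4 with 1 tumour left out (4 without KPH2 3). The count of lower genes, 2 in the report, was 0 with all 8 tumours, 0 with the muscle covariate, 1 with DESeq2, 1 with DESeq2 over all 8 tumours, 3 with no filter, 3 with at least 10 counts, 3 with edgeR without robust estimates and 1 to 3 with 1 tumour left out, 1 of them without KP 6 or without KPH2 3. The shares of all genes were 7.04% higher and 7.09% lower with no filter, 3.42% and 4.40% with the muscle covariate, 8.75% and 9.69% with DESeq2, 7.59% and 8.79% with DESeq2 over all 8 tumours, and 6.63% to 9.73% and 6.73% to 10.1% with 1 tumour left out, and the share of members tested was lower than that of all genes in each of these. The C/D box median was 0.10 with all 8 tumours (0.0970 with DESeq2) in place of −0.12, and −0.31 to 0.00 with 1 tumour left out, and the H/ACA box median −0.10 to 0.35. Snord14e ran from −2.003 to −0.53 over the alternatives (adjusted p 0.0574 to 0.946). The difference in snoRNA share ran from −0.0208 (without KPH2 2) to 0.0132 percentage points (without KPH2 3). With all 8 tumours the log2 fold change changed sign for Snora17 (0.085 with edgeR, 0.0838 with DESeq2), Snora3 (0.23, both), Snora61 (0.10, both), Snora74a (0.0717, 0.0673), Snord15b (0.27, both) and Snord17 (0.11, both), and with the muscle covariate for Snora23 (−0.0372), Snord17 (0.0536) and Snord8 (−0.0037). With 1 tumour left out it ran from −0.24 to 0.42 for Snora81, −0.37 to 0.0645 for Snord2, −0.49 to 0.031 for Snora74a, −0.65 to 0.26 for Snord15b, −0.23 to 0.19 for Snord17, −0.50 to 0.43 for Snora23, −0.36 to 0.33 for Snora73a, −0.12 to 0.63 for Snord22 and −0.81 to 0.0216 for Snora3. None of these genes passed a threshold in the report, and the cause of the changes was not tested. Counts per tumour of most C/D box genes were too low to show small differences.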
